A study of Mus musculus with 6 samples.

Results

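The MYC network is a small set of transcription factors of the basic helix-loop-helix leucine zipper class that share dimerisation partners and DNA sites. MYC and MYCN pair with MAX, bind the E-box CACGTG and activate genes of ribosome production, metabolism and cell growth. The MXD proteins (encoded by Mxd1, Mxd3, Mxd4 and Mxi1) and MNT compete for the same partner and sites and recruit the SIN3 histone deacetylase corepressor. MGA pairs with MAX too and is the scaffold of a variant Polycomb complex, PRC1.6, which silences germline genes in mouse embryonic stem cells. MLX is an alternative partner, used by MXD1, MXD4, MNT and the glucose-responsive Mondo proteins. In mouse embryonic stem cells MYC and MYCN sustain self-renewal, and MXD proteins are known for accompanying differentiation and withdrawal from the cell cycle.

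The members were all probe sets of the array, groups of probes against a gene's transcripts, whose single gene symbol in the platform's annotation was Myc, Mycn, Max, Mxd1, Mxd3, Mxd4, Mxi1, Mnt, Mga or Mlx. This gave 23 of 28898 probe sets with a single symbol, for 9 of the 10 genes. Max was not analysed here. The samples were 3 arrays labelled CD98hc KO and 3 labelled WT, with the replicate numbers 1, 3 and 5 under each label, and values are given in that order below. Both labels stand for mouse cells that the study calls fibroblasts and derived from embryonic stem cells, the first without CD98hc, the heavy chain of several amino acid transporters, and the second with it. All were grown in the same high-glucose medium with serum and β-mercaptoethanol. The sources used here name neither the clones nor separate cultures, so p-values cover only how far these arrays scatter, and that scatter may be technical.

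Before any result of the network, the labels were set against the data. Slc3a2, which encodes CD98hc, was higher on the KO-labelled arrays (11.65, 11.57 and 11.54) than on the WT-labelled arrays (10.64, 10.67 and 10.51, log2 expression by RMA, which summarises the probes of a set), a difference of 0.98 (limma adjusted p = 0.00018) which goes against the label, and the place of its only probe set relative to the deletion is not known here. Pluripotency markers (11 of 11 measured) were higher on the KO-labelled arrays, with a summed level of 14.71 to 14.85 (log2 of the sum) under the KO label and 8.53 to 9.01 under the WT label. Of 16 fibroblast markers 9 were lower and 1 higher, with summed levels of 11.43 to 11.9 under the KO label and 14.24 to 14.75 under the WT label. The fibroblast markers Thy1, Pdgfra, Lum, Fap and Postn averaged below 5 under both labels, against a median of 4.23 for the 23 nonspecific control probe sets. The means of these controls ran from 3.28 to 8.32, so their median is a rough guide to the floor. Of 7 markers of dividing cells 1 was higher and 3 were lower, with summed levels of 13.71 to 13.77 and 13.68 to 13.78 under the KO and WT labels. Over all 17097 genes 22.6% were called higher and 19.2% lower. The replicate 3 arrays stood apart in the 18 hybridisation control probe sets, which differed by −1.21 on the log2 scale from the other 4 arrays and were lower on both, a split seen in these controls that no label names as a batch. Groups are therefore called by their labels below, and the part of these differences in cell type markers in the results on the network was not tested. In RNA from whole cultures, fewer cells of a type and less RNA per cell cannot be told apart.

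Mycn, the member of the MYC family best known from embryonic and neural cells, carried the largest difference of the network, and Mxd4, a repressor of the MXD family, the largest in the other direction. The 250 bases before the annotated start of each are shown because these 2 genes bracket the changes of the network. They come from RefSeq (GRCm38.p6), Mycn from chr12:12941837-12942086 and Mxd4 from chr5:34187711-34187960, both on the minus strand, 5′ to 3′. Capitals mark the E-box CACGTG and the E2F motif TTTNGCGC, each searched on both strands in the whole window, which runs from 250 bases before the start to 50 after it. The sequences shown are the part before the start. E2F proteins are factors of the G1 to S transition.

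Mycn: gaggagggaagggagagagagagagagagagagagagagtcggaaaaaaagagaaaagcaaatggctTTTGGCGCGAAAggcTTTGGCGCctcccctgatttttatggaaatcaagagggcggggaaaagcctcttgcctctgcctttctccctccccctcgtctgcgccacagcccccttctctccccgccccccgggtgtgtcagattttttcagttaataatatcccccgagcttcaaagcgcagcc

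Mxd4: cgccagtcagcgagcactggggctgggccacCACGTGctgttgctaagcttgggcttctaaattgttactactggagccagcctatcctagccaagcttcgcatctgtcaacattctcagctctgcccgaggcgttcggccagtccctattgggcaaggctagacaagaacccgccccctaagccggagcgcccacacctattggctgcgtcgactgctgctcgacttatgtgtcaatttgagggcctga

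The Mycn window held 3 matches to TTTNGCGC, the second of which lies on the other strand and overlaps the first, and no E-box. Over 32851 such windows, 50 bases after the start included, 1.38% held this motif at all. The 3 matches of Mycn set the cutoff for a further count: 2 windows (0.00609%), that of Mycn among them, held 3 or more. The Mxd4 window held an E-box, as did those of Mnt, Mlx and Max (in Max across the start itself, so not within the bases before it), against 7.15% of all windows. The E-boxes of the first 2 are shown with the bases around them for comparison with that of Mxd4, Mnt from chr11:74830789-74830818 and Mlx from chr11:101087238-101087267, both on the plus strand of GRCm38.p6.

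Mnt: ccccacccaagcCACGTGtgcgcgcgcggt

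Mlx: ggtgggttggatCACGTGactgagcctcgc

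No window of Mxd1, Mxd3, Mxi1 or Mga held either motif, and Myc had no entry among the sequences used. In all, 9 of the 10 genes had a window, 11 windows in sum. A match is a description of these letters, and binding was not measured.

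**Figure D1:**
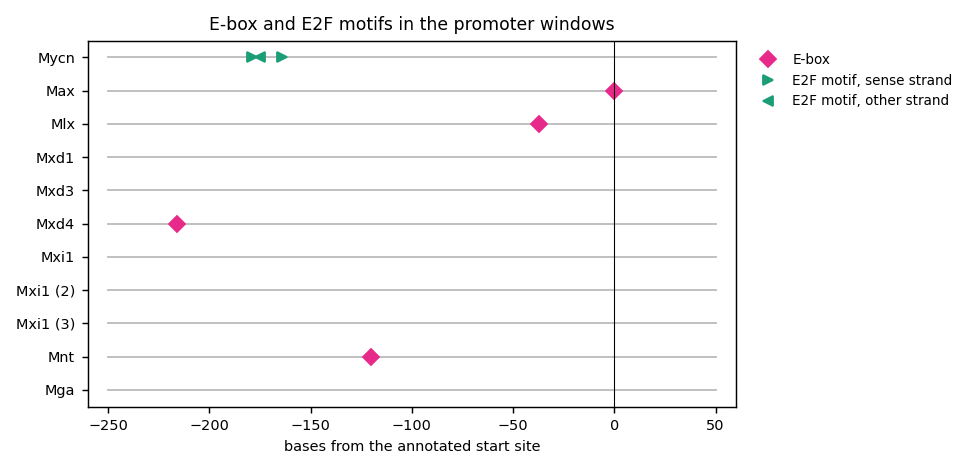
Positions of E-box and E2F motifs (symbols) in the 11 promoter windows of 9 network genes, in bases from the annotated start site; a number in brackets marks a further window of the same gene. The 3 E2F matches of Mycn lie together upstream, and E-boxes are found in Max, Mlx, Mxd4 and Mnt.

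Of the 23 probe sets 6 were higher on the KO-labelled arrays and 5 were lower at an adjusted p under 0.05 (limma's moderated test with Benjamini-Hochberg adjustment over all non-control probe sets). This is 26.1% higher, where 16.8% of all 45037 non-control probe sets and 19.3% of those with a single symbol were called higher, and 21.7% lower, where the background was 16% and 18.8%. The 6 belonged to 2 genes, Mycn and Mga, and the 5 to 3 genes, Mxd4, Mxi1 and Mxd3, and probe sets of a gene share its transcripts. Counted by 1 probe set per gene, 2 of the 9 genes were higher and 3 lower, where 22.6% and 19.2% of all genes were. The 4 genes with no probe set past the threshold were Myc, Mlx, Mxd1 and Mnt. With a change over 2-fold in addition, 4 were higher and 2 lower (17.4% and 8.7%, against a background of 6.35% and 7.43%). In 16 of the 23, 8 in each direction, the 3 values under one label lay apart from the other 3, which held for 45.9% of all probe sets. The median log2 fold change was −0.04 over the 23 and 0 over all probe sets, and the 23 ran from −1.22 to 5.10.

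**Figure D2:**
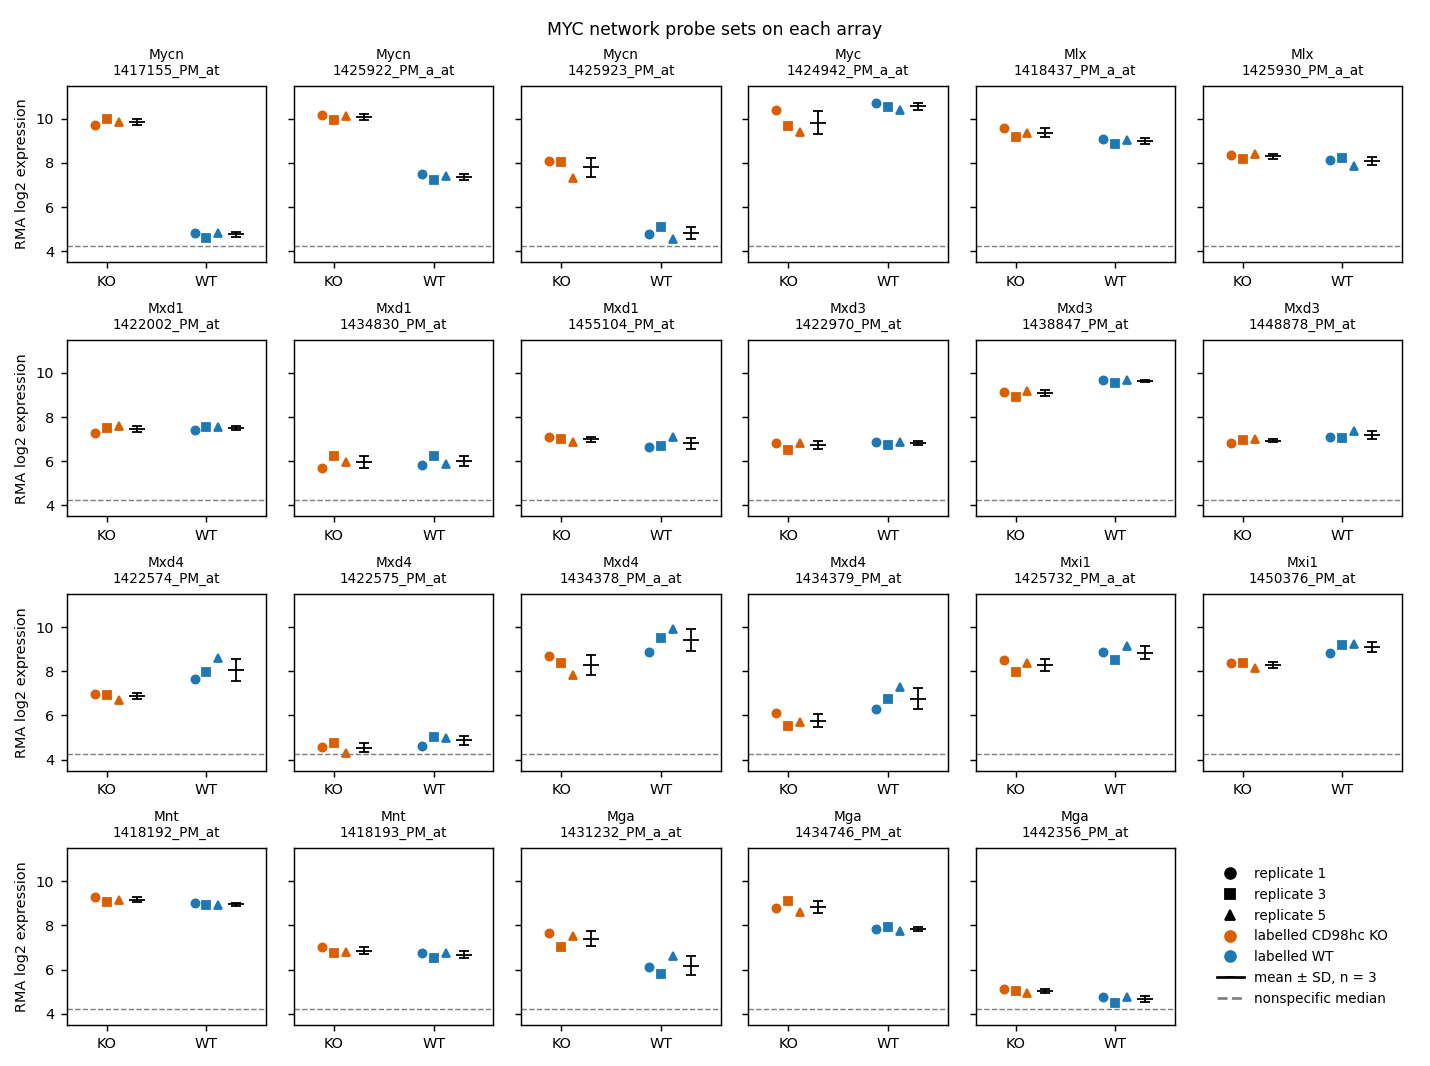
RMA log2 expression of each of the 23 MYC network probe sets on the 3 arrays labelled CD98hc KO (orange, left) and the 3 labelled WT (blue, right), by replicate number (symbol), with the mean ± SD (n = 3) and the median of the nonspecific control probe sets (dashed, 4.23). The 3 Mycn probe sets separate the labels by the widest gaps. Under the WT label 3 of the 4 Mxd4 probe sets show a wide spread (SD 0.49 to 0.52), as Myc does under the KO label (SD 0.51).

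Mycn was measured by 3 probe sets, and all 3 rose. Probe set 1417155_PM_at read 9.73, 10.00 and 9.87 on the KO-labelled arrays, against 4.85, 4.62 and 4.83 on the WT-labelled arrays, or 9.87 ± 0.14 against 4.76 ± 0.13 (SD, n = 3 each). The WT-labelled values lay near the nonspecific median of 4.23, which may understate the fold change. It came to 5.10 on the log2 scale (SE, standard error, 0.10, 95% interval 4.85 to 5.35, limma adjusted p = 1.8e-06), or 34.3-fold. In the distribution of changes over all probe sets it stood at percentile 99.8.

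The other Mycn probe sets were both designed on the same deposited transcript sequence. Probe set 1425922_PM_a_at read 10.18, 9.94 and 10.15 under the KO label, against 7.49, 7.21 and 7.41 under the WT label, a log2 fold change of 2.72 (SE 0.11, limma adjusted p = 1.4e-05). Probe set 1425923_PM_at read 8.07, 8.03 and 7.30 under the KO label, against 4.76, 5.10 and 4.57 under the WT label, a log2 fold change of 2.99 (SE 0.24, limma adjusted p = 0.00022). No array of one label reached the values of the other in any of the 3. The sizes differed: the change of 1417155_PM_at exceeded that of 1425922_PM_a_at by 2.38 (95% interval 2.03 to 2.73, adjusted p = 5.1e-05) and that of 1425923_PM_at by 2.11 (1.48 to 2.74, adjusted p = 0.0013), by limma on the differences within each array. Under the WT label 1425923_PM_at, with a mean of 4.81, lay near the nonspecific median as well. The direction and the call of all 3 held under each of the 13 alternatives, with log2 fold changes from 4.96 to 5.17 for the first probe set.

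Myc, the ubiquitous member of the family, was measured by a single probe set, 1424942_PM_a_at. It read 10.40, 9.68 and 9.42 on the KO-labelled arrays, against 10.73, 10.54 and 10.41 on the WT-labelled arrays. The groups did not overlap, but KO replicate 1 came within 0.01 of the lowest WT-labelled array. The log2 fold change of −0.72 (95% interval −1.33 to −0.12) did not pass, with an adjusted p of 0.072 from limma. Without KO replicate 1 it was −1.01, with an adjusted p of 0.0047, while it did not pass without any other single array (highest adjusted p 0.19). The signal was high under both labels, at percentile 92.7 of all probe sets by its mean.

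Mlx, the alternative partner, had log2 fold changes of 0.38 (1418437_PM_a_at, 95% interval 0.08 to 0.68, adjusted p = 0.061) and 0.23 (1425930_PM_a_at, −0.04 to 0.50, adjusted p = 0.18), and neither passed in limma. The first read 9.57, 9.16 and 9.35 under the KO label, against 9.09, 8.84 and 9.03 under the WT label, with no overlap. It passed with the split of the hybridisation controls (replicate 3 against the others) as covariate (adjusted p = 0.015), with quantile normalisation between arrays (0.033) and without KO replicate 3 (0.029). The second read 8.35, 8.18 and 8.39 under the KO label, against 8.14, 8.21 and 7.88 under the WT label, and overlapped.

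**Figure D3:**
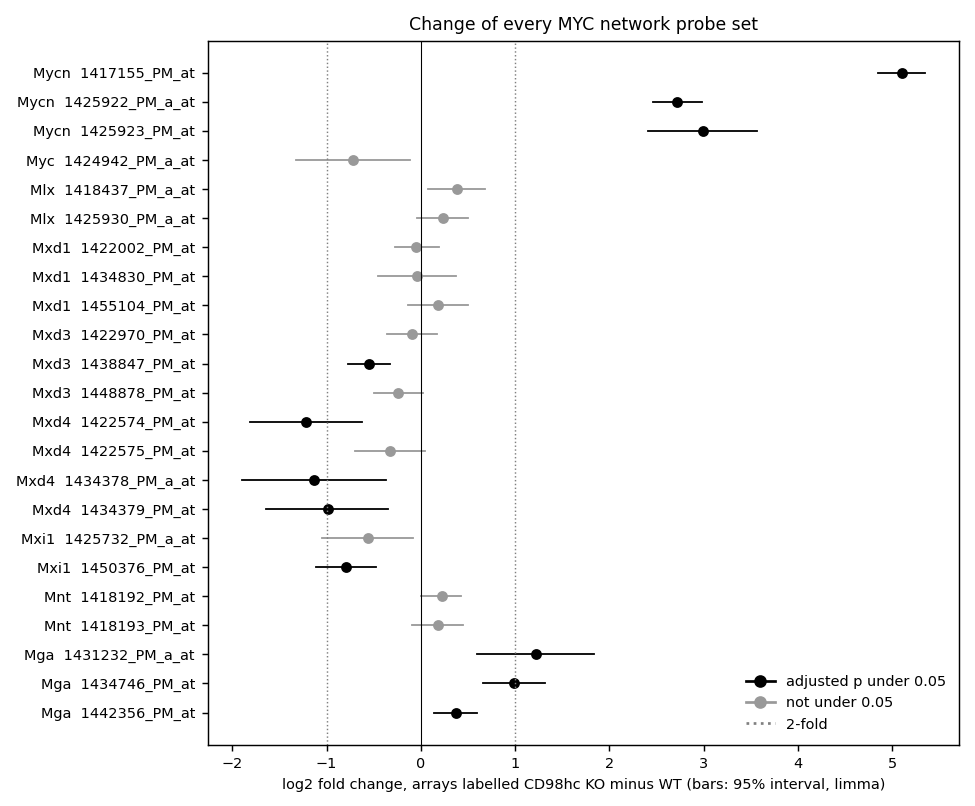
Log2 fold change of the 23 probe sets (KO-labelled minus WT-labelled arrays) with 95% intervals from limma; black marks an adjusted p under 0.05 and dotted lines mark 2-fold. The Mycn probe sets lie at 2.72 to 5.10, those of Mga at 0.37 to 1.22, and those of Mxd4 and Mxi1 below 0.

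Among the MXD repressors, Mxd4 fell in 3 of its 4 probe sets. Probe set 1422574_PM_at read 6.97, 6.91 and 6.71 on the KO-labelled arrays, against 7.64, 7.97 and 8.62 on the WT-labelled arrays, a log2 fold change of −1.22 (SE 0.24, limma adjusted p = 0.0099). Probe set 1434378_PM_a_at read 8.69, 8.37 and 7.82 under the KO label, against 8.88, 9.49 and 9.90 under the WT label (−1.13, SE 0.32, limma adjusted p = 0.035). Probe set 1434379_PM_at, designed on the same transcript sequence as the second, read 6.09, 5.54 and 5.68 under the KO label, against 6.29, 6.73 and 7.27 under the WT label (−0.99, SE 0.27, limma adjusted p = 0.030). In all 3 the replicate 1 arrays of the labels lay closest together: KO replicate 1 was the highest of its label and WT replicate 1 the lowest.

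The fourth Mxd4 probe set, 1422575_PM_at, read 4.56, 4.76 and 4.32 under the KO label, against 4.62, 5.02 and 4.97 under the WT label. The labels overlapped, and the change was −0.33 (95% interval −0.70 to 0.04, limma adjusted p = 0.17) at a mean level of 4.71, near the nonspecific median. The change of 1422574_PM_at minus its own was −0.89 (limma adjusted p = 0.017), and its own minus that of 1434378_PM_a_at was 0.81 (adjusted p = 0.040). The calls of 1434378_PM_a_at and 1434379_PM_at were lost without KO replicate 3, KO replicate 5, WT replicate 3 or WT replicate 5 in turn (adjusted p = 0.052 to 0.1), and all 3 calls were lost within the 4 arrays of replicates 1 and 5, with log2 fold changes of −1.29, −1.14 and −0.90.

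Mxi1, which encodes the repressor MXI1, fell in 1450376_PM_at. It read 8.38, 8.38 and 8.14 under the KO label, against 8.85, 9.21 and 9.22 under the WT label, a log2 fold change of −0.80 (SE 0.13, limma adjusted p = 0.0042), and was called under all 13 alternatives. Its other probe set, 1425732_PM_a_at, read 8.52, 7.96 and 8.37 under the KO label, against 8.88, 8.52 and 9.14 under the WT label. The highest KO-labelled and the lowest WT-labelled values both round to 8.52. The change of −0.56 had an adjusted p of 0.081 from limma, and of 0.0061 with the split of the hybridisation controls as covariate. The changes of the 2 probe sets differed by 0.23 (95% interval −0.33 to 0.79), which did not pass.

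Mxd3, a member of the family expressed in proliferating cells, fell in 1438847_PM_at, its brightest probe set. The values were 9.15, 8.93 and 9.18 on the KO-labelled arrays, against 9.67, 9.56 and 9.68 on the WT-labelled arrays, a log2 fold change of −0.55 (SE 0.09, limma adjusted p = 0.0043). Probe set 1448878_PM_at read 6.84, 6.98 and 7.00 under the KO label, against 7.09, 7.06 and 7.39 under the WT label, with no overlap (−0.24, limma adjusted p = 0.15). Probe set 1422970_PM_at read 6.84, 6.51 and 6.84 under the KO label, against 6.89, 6.73 and 6.86 under the WT label, with overlap (−0.09, limma adjusted p = 0.61). The change of 1422970_PM_at differed from that of 1438847_PM_at by 0.46 (adjusted p = 0.017).

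Within the same family Mxd1, whose product MXD1 is the founding member, had changes of −0.05, −0.04 and 0.18 in 3 probe sets. Their 95% intervals reached from −0.45 to 0.50, the labels overlapped in each, and the lowest adjusted p was 0.39 from limma. Probe set 1422002_PM_at read 7.30, 7.49 and 7.60 under the KO label, against 7.42, 7.56 and 7.55 under the WT label. Probe set 1434830_PM_at read 5.68, 6.22 and 5.96 under the KO label, against 5.85, 6.25 and 5.89 under the WT label. Probe set 1455104_PM_at read 7.09, 7.02 and 6.86 under the KO label, against 6.66, 6.68 and 7.08 under the WT label, where WT replicate 5 lay among the KO-labelled values.

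Mnt, the broadly expressed antagonist of MYC, had changes of 0.22 (1418192_PM_at, 95% interval 0.00 to 0.43, adjusted p = 0.12) and 0.18 (1418193_PM_at, −0.09 to 0.45, adjusted p = 0.29), neither past the threshold in limma. The first read 9.30, 9.06 and 9.13 under the KO label, against 9.03, 8.91 and 8.91 under the WT label, with no overlap. The second read 7.03, 6.75 and 6.80 under the KO label, against 6.76, 6.51 and 6.76 under the WT label, and overlapped. The first passed in 1 of 13 alternatives, quantile normalisation (log2 fold change 0.28, adjusted p = 0.046).

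Mga, by contrast with the MXD genes, rose in all 3 probe sets. Probe set 1434746_PM_at read 8.77, 9.12 and 8.62 on the KO-labelled arrays, against 7.84, 7.93 and 7.75 on the WT-labelled arrays (log2 fold change 0.99, SE 0.14, limma adjusted p = 0.0021). Probe set 1431232_PM_a_at read 7.66, 7.00 and 7.53 under the KO label, against 6.13, 5.78 and 6.62 under the WT label (1.22, SE 0.26, limma adjusted p = 0.012). Both were called under all 13 alternatives. The third, 1442356_PM_at, was dim (mean 4.85) and read 5.10, 5.05 and 4.95 under the KO label, against 4.75, 4.49 and 4.75 under the WT label (0.37, limma adjusted p = 0.026). Its change was smaller than those of 1431232_PM_a_at and 1434746_PM_at by 0.85 and 0.62 (adjusted p = 0.031 and 0.037), and its call was lost with median-centred arrays (adjusted p = 0.069), with quantile normalisation (0.051), within replicates 1 and 5 (0.098), and without KO replicate 1 (0.085), KO replicate 3 (0.067) or WT replicate 3 (0.052).

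In all, 21 pairs of probe sets could be compared within 8 genes, and 7 differed in their change, where 21.3% of 19058 such pairs over all genes did. They were 2 pairs each for Mycn, Mxd4 and Mga and 1 for Mxd3. In 6 of the 7, all but that of Mxd3, at least 1 probe set averaged below 5 under a label, near the nonspecific median of 4.23. In the Mxd4 and Mga pairs that probe set had the smaller change. In both Mycn pairs 1417155_PM_at, which averaged 4.76 under the WT label, had the larger change. The part of this floor in the differences was not tested. With an array left out the count was 3 to 5, and it was 4 without KO replicate 1, 3 without KO replicate 5, 4 without WT replicate 1 and 4 without WT replicate 5. No pair passed for Mxi1, Mxd1, Mnt or Mlx, whose largest difference was 0.23.

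**Figure D4:**
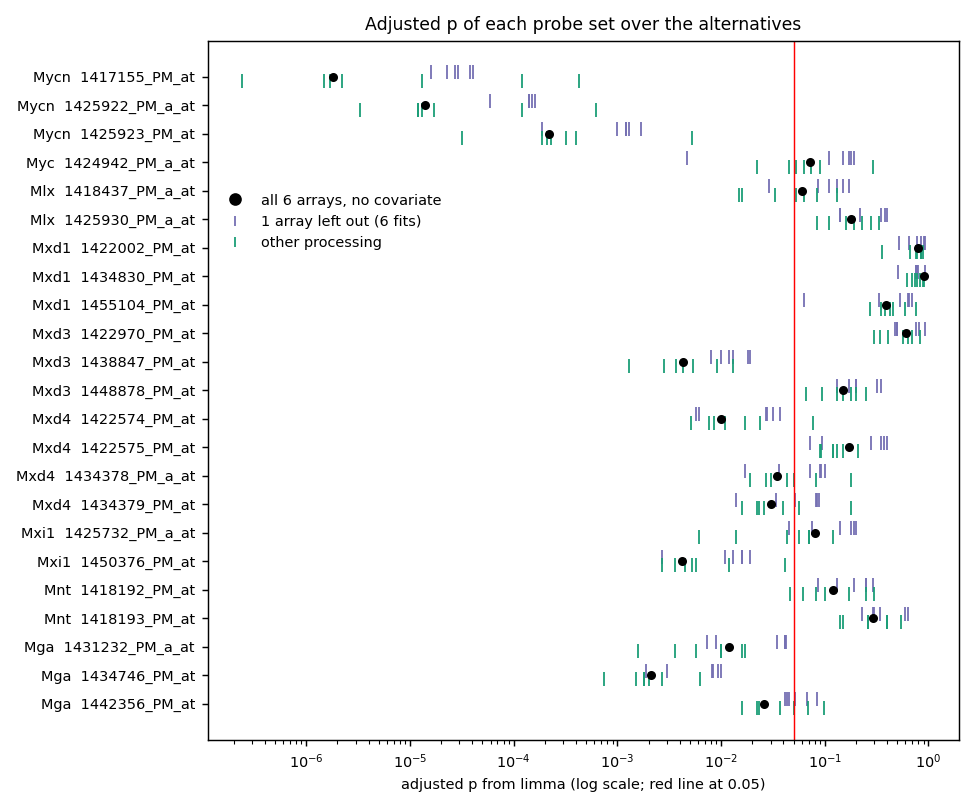
Adjusted p from limma of each of the 23 probe sets (log axis, red line at 0.05) with all 6 arrays (black points), with an array left out (purple, 6 fits) and under 7 other settings (green). Those of Mycn stay left of the line, those of Mxd4 1434378_PM_a_at and 1434379_PM_at fall on both sides, and Mxd1 stays right of it.

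The genes whose values over the 6 arrays were most like those of Mycn 1417155_PM_at, by the root mean square difference after each was centred on its own mean, were Pmaip1, which encodes the apoptosis regulator NOXA (0.113), the growth factor midkine gene Mdk (0.169), the dystrophin gene Dmd (0.175), Spry4, an inhibitor of receptor tyrosine kinase signalling (0.193), and the death-associated kinase gene Dapk1 (0.208), out of 15529 genes. Their log2 fold changes were 4.82 to 5.34. For Mxd4 1422574_PM_at they were H4bc24 (0.0694), D5Ertd579e (0.103), the epoxide hydrolase gene Ephx1 (0.104), the lysosomal enzyme gene Naglu (0.113) and Snhg18 (0.122), with log2 fold changes of −1.07 to −1.40. The 6 arrays fall into 2 groups, which all these genes share.

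The wider network was described with 117 genes in 7 lists, of which 103 were measured, each by its most variable probe set. On the KO-labelled arrays 40 were higher (38.8%) and 15 lower (14.6%), against 22.6% and 19.2% of 17097 genes, and the median log2 fold change was 0.30, against 0.02 over all genes. The lists were chosen with earlier results of these data known, so these shares and those of each list below are descriptions and not tests. The same arrays differed in 11 of 11 pluripotency markers. Of the remaining basic helix-loop-helix leucine zipper genes of the network, Mycl, a further MYC family member, rose by 1.24 (SE 0.11, limma adjusted p = 0.00021). This was the most variable of its 3 probe sets. It averaged 5.54 under the KO label and 4.30 under the WT label, the latter near the nonspecific median of 4.23. The Mondo gene Mlxipl rose by 0.28 (limma adjusted p = 0.022) at a low level, 4.34 under the KO label and 4.06 under the WT label, and Mlxip had −0.08 (adjusted p = 0.62).

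Of 11 measured partners of MGA in PRC1.6, 4 rose (36.4%) and 1 fell (9.09%), with a median of 0.64. Over all genes 22.6% rose and 19.2% fell. Rybp (1.56) and L3mbtl2 (1.28, limma adjusted p = 0.00016), which encodes the reader protein of the complex, led them, followed by Cbx1 (0.70) and the WD-repeat gene Wdr5 (0.64). Yaf2, the homologue of Rybp, fell by 1.55 (limma adjusted p = 0.0021), while Pcgf6, the subunit that defines the complex, had 0.68 (adjusted p = 0.098) and E2f6 −0.53 (adjusted p = 0.097). Of 15 genes of the SIN3 corepressor that MXD proteins recruit, 6 rose (40%) and 4 fell (26.7%), with a median of 0.41. Fam60a, now named Sinhcaf (1.62), and Sap30 (1.48) had the largest increases, and Brms1 (−1.30) and Arid4b (−0.85) the largest decreases. Hdac1 rose by 0.62 (limma adjusted p = 0.0031), and the scaffolds Sin3a (0.68, adjusted p = 0.058) and Sin3b (0.31, adjusted p = 0.25) did not pass.

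Of 10 genes in the list of MYC coactivators, which also holds the MYC partner gene Zbtb17, 5 rose and 1 fell. This is 50% and 10%, against 22.6% and 19.2% of all genes, with a median of 0.36. Those that rose included Ccnt1 of the elongation factor P-TEFb (0.79) and the acetyltransferase gene Kat2a (0.57). The helicase gene Ruvbl1 (0.57) and Actl6a (0.43), of chromatin remodelling complexes, rose too. The gene that fell was Zbtb17, by 0.20 (limma adjusted p = 0.035), which encodes MIZ1, the partner of MYC in repression, so no coactivator was called lower. Of 17 genes for the turnover and binding of MYC, 3 rose and 3 fell (17.6% each, near the 22.6% and 19.2% of all genes), with a median of −0.03. Fbxw7, the ubiquitin ligase subunit that recognises phosphorylated MYC, rose by 1.20 (limma adjusted p = 0.00081), and the deubiquitinase genes Usp7 and Usp28 rose by 1.16 and 1.03. Bin1, which encodes a MYC-binding adaptor, fell by 2.66 (limma adjusted p = 4.3e-05), and the kinase gene Gsk3b by 0.83.

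Of 36 genes known to be induced by MYC, 16 rose (44.4%) and 3 fell (8.33%), with a median of 0.33. Over all genes 22.6% rose and 19.2% fell. Ppat, the first enzyme of purine synthesis, rose by 1.78 (SE 0.16, limma adjusted p = 0.00027), the telomerase gene Tert by 1.61, the nucleolar genes Nolc1 and Ncl by 1.27 and 1.15, and Odc1, of polyamine synthesis, by 1.16. Those that fell were Ccnd2, a D-type cyclin (−4.14, limma adjusted p = 0.00018), the repair enzyme gene Apex1 (−0.45) and Ldha, of lactate production (−0.25). Of 11 genes known to be repressed by MYC, 4 rose (36.4%) and 3 fell (27.3%), with a median of 0.34. The list held the widest changes of the 7 lists in both directions, Cdkn1c with 4.79 and Cdkn2b with −4.17 (adjusted p = 0.00022 and 1.5e-05 from limma), both inhibitors of cyclin-dependent kinases. Hmox1 rose by 1.39 and Gadd45a by 1.37, and Pdgfrb, also among the fibroblast markers, fell by 1.30. Cdkn1a, the classical target of repression through MIZ1, had 0.34 (adjusted p = 0.17).

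**Figure D5:**
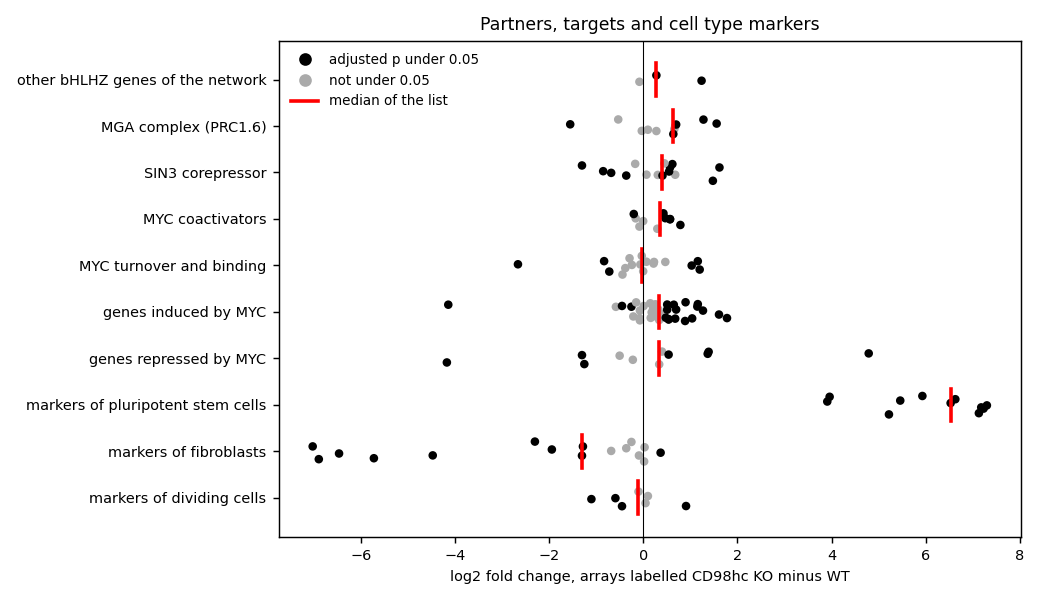
Change on the log2 scale (KO-labelled minus WT-labelled arrays) of the measured genes in 7 network lists and 3 lists of cell type markers, black where the adjusted p from limma was under 0.05, with the median of each list (red). Medians of the network lists lie between −0.03 and 0.64, that of the pluripotency markers at 6.53 and that of the fibroblast markers at −1.29.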

How the data were processed

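RNA was amplified as cDNA and hybridised to Affymetrix whole-genome mouse arrays with perfect-match probes. The deposited values are log2 expression. The authors computed them by RMA (version not given in the sources used here), which corrects background, normalises the arrays to each other and summarises the probes of a set. RMA compresses changes of dim probe sets. The scan batch used by the authors is not given per array, so the model had no covariate. Of 45141 probe sets, 104 were array controls, 28898 had a single symbol in the platform annotation and 551 had several. The difference between KO-labelled and WT-labelled arrays was fitted by limma 3.58.1 (lmFit, eBayes) under R 4.3.3, with Benjamini-Hochberg adjustment over 45037 probe sets, and over 17097 genes (most variable probe set each) for the lists. Pairs of probe sets were fitted on their differences within each array, with adjustment over 19058 pairs. Calls were made at an adjusted p under 0.05. Pearson's correlation over all probe sets was 0.991 to 0.994 within and 0.911 to 0.92 between labels. No depth exists for arrays; their number limits the precision, and an exact permutation test of 3 against 3 cannot go below p = 0.1.

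The members and lists were chosen with earlier results of these data known, and lists were written from textbook knowledge. Named were all members, the 2 largest and 2 smallest changes among called genes of each list, the 5 genes most like the members at both ends, and Slc3a2. Further names, chosen once values had been seen, were Cbx1, Mlxip, Pcgf6, E2f6, Hdac1, Sin3a, Sin3b, Usp28, Nolc1, Ncl, Odc1, Ldha, Gadd45a and Cdkn1a and the 5 dim fibroblast markers. The fit was tested on simulated data for this comparison over 45037 probe sets: calls were made for 88 of 100 probe sets given a log2 change of 1.5, for 98 of 100 given a change of 3 and for 13 of 44837 given none. Far fewer probe sets changed there than were called in the data, and the noise was independent between arrays. Changes below 1.5 were not simulated, so these rates do not describe the smaller changes of most members. Alternatives were the replicate number as a block, the split of the hybridisation controls (replicate 3 against the others, inferred from the data) as covariate, replicates 1 and 5 alone, quantile normalisation, median centring, another variance prior, a filter on dim probe sets, the fold limit, the probe set per gene and each array left out. Figures were drawn with matplotlib 3.10.9.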

Additional observations from a re-analysis of the deposited data

How the results depend on the processing

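Of the 11 called probe sets of the network, 7 were called under all 13 alternatives and 4 (3 of Mxd4, 1 of Mga) were lost under some, with no change of sign. Of the 12 others, 4 were called under some alternative. Signs changed for 3 probe sets that did not pass: Mxd1 1422002_PM_at (0.04 with quantile normalisation, −0.11 to 0.04 with an array left out), Mxd1 1434830_PM_at (−0.17 to 0.09) and Mxd3 1422970_PM_at (−0.15 to 0.02). The 6 higher and 5 lower probe sets became 5 to 6 and 3 to 6 with an array left out, and 3 were lower within replicates 1 and 5 and without KO replicate 3, KO replicate 5 or WT replicate 5. Calls over all probe sets fell as well, from 7564 higher and 7187 lower. They were 6151 to 7006 and 6028 to 6629 with an array left out, and 5831 and 5747 within replicates 1 and 5. Over 2-fold 4 of the 23 members were higher and 2 lower. With 1 probe set per gene 2 of the 9 genes were higher and 3 lower, where 22.6% and 19.2% of all genes were. Of the wider network, 32 to 40 genes were higher and 12 to 14 lower with an array left out, and 17 and 7 over 2-fold. The counts were 50 and 18 with the replicate number as a block, and 47 and 21 with the split of the hybridisation controls as covariate. The 7 differing pairs became 3 to 5 with an array left out and 6 within replicates 1 and 5. They were 7 with the block, 8 with the split as covariate and 7 with another variance prior. The cause was not tested. Signal near the nonspecific median limits Mxd4 1422575_PM_at and Mga 1442356_PM_at under both labels. It also limits Mycn under the WT label, except in probe set 1425922_PM_a_at, which averaged 7.37 there.

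With the replicate number as a block 12 probe sets were called, 9 of them among the 11. The Mxd4 calls of 1434378_PM_a_at and 1434379_PM_at were lost (adjusted p = 0.083 and 0.057), and Myc (adjusted p = 0.022), Mlx 1418437_PM_a_at (0.016) and Mxi1 1425732_PM_a_at (0.014) were added. Same-numbered arrays deviated together with correlations of 0.057, 0.558 and 0.152 for replicates 1, 3 and 5, and KO replicate 1 correlated best with WT replicate 5 (0.31), so the numbers were not taken as pairs. With another variance prior Myc was added (adjusted p = 0.045). With the split of the hybridisation controls as covariate 12 were called, 10 of them among the 11, without Mxd4 1434378_PM_a_at.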
